A study of Mus musculus with 12 samples.

Results

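The 42 genes described here encode core components of the major spliceosome and were taken by symbol, though with earlier results of these data known. All 42 had a row in both deposited count tables, among 26639 features counted in white adipose tissue (WAT) and 22851 counted in cultured adipocytes. They comprise the Sm core of the small nuclear ribonucleoproteins (snRNPs) with 7 genes, the U1 snRNP with 3, the U2 snRNP and U2AF with 12, the U4/U6.U5 tri-snRNP with 8, the PRP19 complex and AQR with 6, and late-acting factors with 6. RNA-seq was done on 12 mouse libraries in 4 groups of 3. The tissue groups were WAT of Adiponectin-cKO mice, in which Xap5 (gene symbol Fam50a) is deleted in mature adipocytes, and WAT of wild-type (WT) mice, both at postnatal day 42. The culture groups were adipocytes of KO and WT genotype at day 8 of adipogenic induction, grown from pre-adipocytes of newborn sWAT and induced with insulin, dexamethasone and IBMX. Adiponectin is a gene of mature adipocytes, so the other cells of the tissue are not targets of the deletion in cKO mice. The sample titles of the cultures give only KO, and which cells in the dish carried the deletion was not tested. Whether replicate libraries stem from different mice or dishes is not stated in the labels, so a p-value here covers the spread among these samples only, which may be technical.

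The spliceosome removes introns in ordered steps. The U1 snRNP binds the 5′ splice site, U2AF and the U2 snRNP define the branch site and the 3′ splice site, the tri-snRNP joins, and the PRP19 complex helps to activate the assembly, after which DEAH-box helicases drive the catalytic rearrangements, the release of the mRNA and the disassembly of the complex. The Sm proteins form the ring that is loaded onto the U1, U2, U4 and U5 snRNAs. The protein encoded by Fam50a has been found in spliceosomes at the catalytic stage, which is the link between the deleted gene and these 42 genes.

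The WAT libraries held 28844370 to 33997204 counts and the culture libraries 10863158 to 21773610, with KO replicates 2 and 3 the deepest of the cultures. All 42 genes passed the low-count filter in both tables. The lowest count of any of them in a library was 85 in WAT and 163 in culture. Levels are given as CPM, counts scaled to a common library total with the TMM factors of each table, so CPM of WAT and of culture are on separate scales. Fam50a itself had 23.3, 16.8 and 28.9 CPM in cKO WAT, against 35.3, 32.5 and 36.5 CPM in WT WAT. It was lower in cKO WAT, with no overlap of the groups (log2 fold change of -0.60 with SE 0.20 and adjusted p = 0.0395), but stood at 0.09 when scaled by library size only (adjusted p = 0.736). In culture it had 46.2, 42.9 and 41.1 CPM in KO and 57.9, 52.01 and 45.2 CPM in WT cells, and the groups overlapped (log2 fold change of -0.26 with SE 0.12 and adjusted p = 0.134). These counts cover the whole gene and check nothing of the deleted part.

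Markers of several cell types differed between genotypes in WAT. Summed markers of adipocytes stood at 8287 to 21112 CPM in cKO WAT and 66957 to 71743 CPM in WT WAT, with 9 of 10 lower. Macrophage markers summed to 3542 to 7336 CPM in cKO WAT and 624 to 890.3 CPM in WT WAT, with 14 of 16 higher. Cell-division genes summed to 230.3 to 421 CPM in cKO WAT and 98.2 to 109 CPM in WT WAT, with 14 of 14 higher, and fibroblast markers to 5731 to 9044 CPM in cKO WAT and 2452 to 3242 CPM in WT WAT, with 8 of 9 higher. cKO replicate 3 also held 549 CPM of epithelial markers, where the other 5 WAT libraries held at most 23.0 CPM. Muscle markers summed to 1080.3 CPM in cKO replicate 1 and 1298 CPM in WT replicate 3, and to 64.9 to 268 CPM in the other 4. Schwann-cell markers stood at 689.8 to 746 CPM in cKO WAT and at 655, 158 and 217 CPM in WT WAT, with 4 of 6 higher, and endothelial markers at 477 to 727 CPM in cKO WAT and 848 to 1183 CPM in WT WAT, with 4 of 6 lower and 1 higher. In culture, macrophage markers summed to 3888 to 4424 CPM in KO and 5218 to 5840 CPM in WT cells (6 of 15 tested lower), and adipocyte markers to 25631 to 30508 CPM in KO and 19272 to 21136 CPM in WT cells (4 of 9 tested higher). Fibroblast markers stood at 9428 to 11014 CPM in KO and 12060 to 14996 CPM in WT cells. Of 8 tested, 1 was higher and 1 lower. Endothelial markers stood at 238 to 275 CPM in KO and 310 to 385 CPM in WT cells (3 of 6 lower). Schwann-cell markers stood at 29.3 to 36.3 CPM in KO and 52.1 to 57.9 CPM in WT cells (2 of 4 tested lower). Cell-division genes stood at 579 to 670 CPM in KO and 526 to 578 CPM in WT cells (1 of 14 higher). No adipocyte or macrophage marker was at 0 throughout a group. The part of these cells in the results below was not tested, and in bulk samples fewer cells of a type and less RNA per cell cannot be told apart.

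In WAT the core spliceosome genes moved in both directions. Of the 42, 8 rose and 11 fell in cKO WAT and 23 did not pass the test (adjusted p under 0.05 over 16293 genes). Of all genes tested, 28.2% rose and 24.2% fell, 52.4% in all. The members' median log2 fold change was -0.13, against 0.12 over all genes tested, and the largest change in each direction was 1.5 for Crnkl1 and -1.11 for Prpf19. Summed over the 42 genes, the level was 2239 ± 15.4 CPM in cKO WAT and 2640 ± 138 CPM in WT WAT (SD, n = 3 each). This sum depends on the scaling, because scaling by library size only moves the median of all genes up by 0.68. On that scale 28 members (66.7%) rose and 3 (7.14%) fell, where 54.2% of all genes rose and 8.76% fell, and the members' median was 0.55 against 0.80 over all genes. The members' median lay 0.25 below that of all genes on both scales, but after correction for transcript length and GC content the medians were -0.17 for the members and -0.10 for all genes. Over the 9517 genes at levels within the members' own range the median was -0.06. As a plain share of counts the 42 genes took 0.283% ± 0.00877 in cKO WAT and 0.208% ± 0.00971 in WT WAT. The 8 rises became 5 without cKO replicate 1 or without WT replicate 2, where 20.4% and 21.0% of all genes rose. Without cKO replicate 3, the library with epithelial markers, 7 rose and 10 fell, where 23.1% of all genes rose and 21.7% fell. Without cKO replicate 1 or WT replicate 3, the libraries with muscle markers, 8 and 9 fell in that order, beside 18.6% and 19.4% of all genes. Without WT replicate 1, the WT library with the most Schwann-cell markers, 12 fell, beside 20.3% of all genes.

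In cultured adipocytes 10 of the 42 genes rose in KO cells, 0 fell and 32 did not pass (adjusted p under 0.05 over 12587 genes). The fold change was positive for 29 of the 42. Of all genes tested, 8.94% rose and 10.6% fell, 19.5% in all. Over the 6715 genes at levels within the members' own range, 12.2% rose and 12.8% fell. At an unadjusted p under 0.05, 16 were higher and 2 lower in edgeR, while DESeq2 and limma voom also called 0 lower. The median log2 fold change of the members was 0.17, against -0.02 over all genes tested, and the summed level was 4140.5 ± 56.4 CPM in KO and 3811 ± 33.4 CPM in WT cells (SD, n = 3 each). With library size only, 6 rose and 2 fell, where 6.24% of all genes rose and 14.0% fell. The 10 rises became 6 (14.3%) without KO replicate 1, 4 (9.52%) without KO replicate 2 and 5 (11.9%) without WT replicate 2. Of all genes, 5.49%, 5.23% and 3.13% rose under the same removals. When all 4 groups shared 1 estimate of the spread, 0 rose and 0 fell (14 higher and 1 lower at an unadjusted p under 0.05 in edgeR). In that fit only 0.401% of all genes rose and 0.608% fell, 1.01% in all. The culture calls of single members lost in that fit, given below, were thus lost where few genes of any kind passed.

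**Figure D1:**
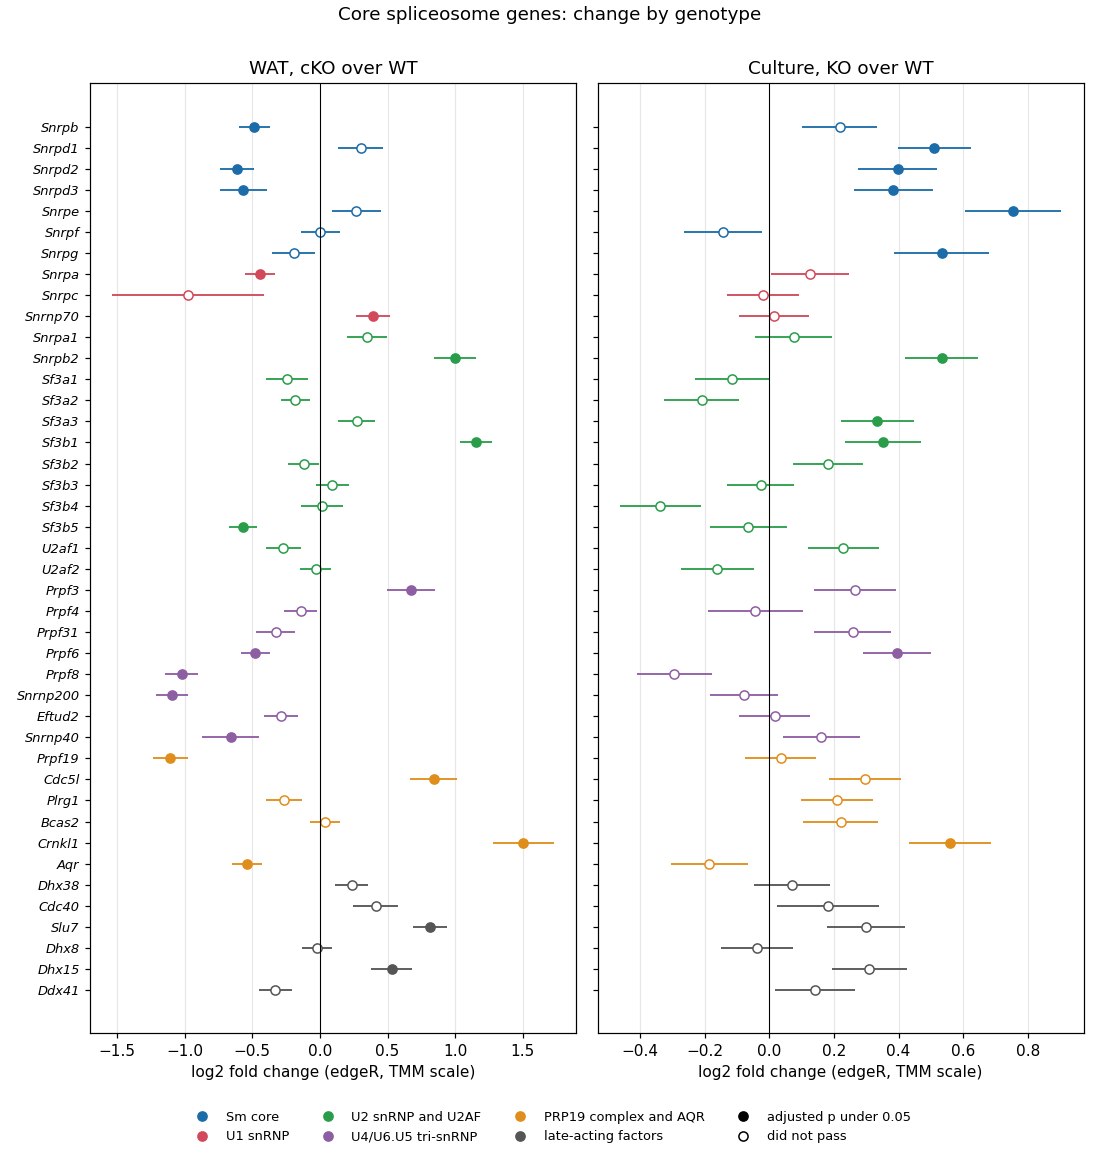
Log2 fold change of each of the 42 core spliceosome genes, cKO over WT in WAT (left) and KO over WT in culture (right, on its own narrower axis), with bars for 1 SE and filled points for adjusted p under 0.05 in edgeR. In WAT the points lie on both sides of 0, from -1.11 for Prpf19 to 1.5 for Crnkl1, while in culture all 10 filled points lie above 0.

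Counts per class stand beside the shares of all genes tested, 28.2% higher and 24.2% lower in WAT and 8.94% and 10.6% in culture. With library size only these shares were 54.2% and 8.76% in WAT and 6.24% and 14.0% in culture. In WAT 3 of 7 Sm core genes fell, 0 rose (0 higher at an unadjusted p under 0.05 in edgeR as well) and 4 did not pass, but with library size only 4 rose and 0 fell. In culture 5 of 7 rose, 0 fell (0 lower at an unadjusted p under 0.05) and 2 did not pass. With library size only 3 rose and 0 fell in culture, and after correction for transcript length and GC content 4 rose and 1 fell, the one being Snrpf at -0.55. Summed over the 7 genes, the Sm level was 289 ± 16.4 CPM in cKO WAT and 373 ± 34.2 CPM in WT WAT, and 554 ± 40.7 CPM in KO cells and 435 ± 6.92 CPM in WT cells. Snrpd2, which encodes the ring protein SmD2, had 49.8, 47.8 and 39.9 CPM in cKO WAT, against 69.7, 67.1 and 73.4 CPM in WT WAT. In culture it had 91.8, 75.2 and 72.9 CPM in KO and 63.4, 65.9 and 52.6 CPM in WT cells. The groups did not overlap in either system, and Snrpd2 fell in cKO WAT (log2 fold change of -0.61 with SE 0.13 and adjusted p = 0.00647) but rose in KO cells (log2 fold change of 0.40 with SE 0.12 and adjusted p = 0.0256). Scaled by library size only, its WAT change did not pass (0.06, adjusted p = 0.661), and its culture call was lost without KO replicate 1, KO replicate 2 or WT replicate 3 among others (adjusted p up to 0.133).

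Snrpd3, encoding SmD3, followed the same course. It had 35.6, 40.96 and 32.1 CPM in cKO WAT, against 43.6, 53.5 and 64.02 CPM in WT WAT, and 112, 105 and 102 CPM in KO cells, against 65.9, 84.3 and 94.2 CPM in WT cells. All cKO libraries lay below all WT libraries in WAT (log2 fold change of -0.57 with SE 0.17 and adjusted p = 0.0284), and all KO libraries above all WT libraries in culture (log2 fold change of 0.38 with SE 0.12 and adjusted p = 0.0305). Both calls were lost in 6 alternatives each, in WAT without cKO replicate 1 or 3 or WT replicate 2 or 3 and in culture without KO replicate 1 or 2 or WT replicate 1 or 2 (adjusted p up to 0.579 in WAT and 0.195 in culture). Snrpe, which encodes SmE and had the largest change of any member in culture, had 55.2, 48.8 and 42.6 CPM in KO cells, against 25.6, 23.4 and 37.5 CPM in WT cells. The groups did not overlap and the rise was lost only in the fit over all 4 groups, among 16 alternatives (log2 fold change of 0.75 with SE 0.15 and adjusted p = 0.0014). In WAT, Snrpe overlapped between genotypes, at 33.8, 28.5 and 24.4 CPM in cKO and 19.1, 25.7 and 27.03 CPM in WT (log2 fold change of 0.27 with SE 0.18 and adjusted p = 0.251). Of the remaining Sm genes, Snrpb (SmB) fell in WAT by 0.48, which did not pass under library size only (0.20, adjusted p = 0.168), and Snrpd1 (SmD1) and Snrpg (SmG) rose in culture by 0.51 and 0.53. Both of these calls were lost in the fit over all 4 groups and after correction for transcript length and GC content (0.14, adjusted p = 0.223, for Snrpd1 and 0.27, adjusted p = 0.179, for Snrpg), and that of Snrpg also without KO replicate 2 or WT replicate 2. Snrpf (SmF) did not pass in either system, with log2 fold changes of 0.00 in WAT and -0.14 in culture. After correction for transcript length and GC content it passed as lower in WAT (-0.50, adjusted p = 0.037 in edgeR).

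In the U1 snRNP, which recognises the 5′ splice site, 1 of 3 genes rose and 1 fell in WAT, and 0 passed in culture (0 also at an unadjusted p under 0.05 in edgeR). Over all genes 28.2% rose and 24.2% fell in WAT, and 19.5% passed in culture. Snrpa, encoding the RNA-binding A protein of the U1 snRNP, had 48.5, 52.9 and 55.3 CPM in cKO WAT, against 69.5, 71.8 and 71.9 CPM in WT WAT. It fell without overlap of the groups (log2 fold change of -0.44 with SE 0.11 and adjusted p = 0.0127), a call lost with library size only (0.24), after correction for transcript length and GC content, and without cKO replicate 1 (adjusted p up to 0.372). In culture its libraries overlapped, at 73.7, 63.5 and 66.2 CPM in KO and 68.9, 64.9 and 52.5 CPM in WT cells (log2 fold change of 0.13 with SE 0.12 and adjusted p = 0.496). Snrnp70, encoding U1-70K, rose in WAT by 0.39 (adjusted p = 0.0323), but lost the call in 7 of 15 alternatives, 5 of them with 1 library left out (every WAT library but WT replicate 3). The WAT table splits Snrpc, which encodes the C protein of this snRNP, over numbered copies of the symbol. The unnumbered entry had 4.60, 19.8 and 20.3 CPM in cKO WAT, against 37.03, 35.1 and 15.7 CPM in WT WAT, and did not pass (log2 fold change of -0.97 with SE 0.56 and adjusted p = 0.181). With the copies summed, Snrpc had 54.2, 58.6 and 47.9 CPM in cKO WAT, against 77.8, 87.5 and 76.2 CPM in WT WAT, and passed as lower (-0.60, SE 0.13, adjusted p = 0.00659). Summed over copies, the levels thus varied less within each group than those of the unnumbered entry alone.

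The U2 snRNP and U2AF genes held 2 of the 3 genes that rose in both systems. In WAT 2 of 12 rose and 1 fell, beside 28.2% and 24.2% of all genes. Under library size only 11 rose and 0 fell, beside 54.2% and 8.76% of all genes. In culture 3 of 12 rose and 0 fell (1 lower at an unadjusted p under 0.05), with 1 each way under library size only. Of all genes, 8.94% rose and 10.6% fell in culture, and 6.24% and 14.0% under library size only. Sf3b1, whose product clamps the branch site and is the largest SF3B subunit, had 143, 143 and 149 CPM in cKO WAT, against 71.1, 58.7 and 65.6 CPM in WT WAT. In culture it had 409.8, 399 and 419.8 CPM in KO and 282, 301 and 379 CPM in WT cells. Every cKO or KO library lay above every WT library, and Sf3b1 rose in WAT (log2 fold change of 1.16 with SE 0.12 and adjusted p = 0.000698) and in culture (log2 fold change of 0.35 with SE 0.12 and adjusted p = 0.0366). The WAT call was lost after correction for transcript length and GC content (0.19, adjusted p = 0.173). The culture call was lost in 7 of 16 alternatives, among them each KO replicate and WT replicates 1 and 2 left out in turn (adjusted p up to 0.168).

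Snrpb2, encoding the U2 protein U2B″, had 30.4, 24.9 and 24.4 CPM in cKO WAT, against 11.8, 13.3 and 14.8 CPM in WT WAT, and 64.3, 66.3 and 68.7 CPM in KO cells, against 42.7, 46.3 and 48.8 CPM in WT cells. The groups did not overlap, and it rose in WAT (log2 fold change of 1.00 with SE 0.16 and adjusted p = 0.00227) and in culture (log2 fold change of 0.53 with SE 0.11 and adjusted p = 0.00218). Both calls were lost after correction for transcript length and GC content (0.07 in WAT, adjusted p = 0.758, and 0.19 in culture, adjusted p = 0.114). Its binding partner on the U2 snRNA, encoded by Snrpa1, did not pass in WAT (0.35, SE 0.15, adjusted p = 0.085) or in culture (0.08). Among the SF3A and SF3B subunits, Sf3b5 fell in WAT by 0.57 and Sf3a3 rose in culture by 0.33, the second lost in 8 of 16 alternatives. Sf3a1, Sf3a2, Sf3b2, Sf3b3, Sf3b4 and both U2AF subunits, U2af1 (which reads the AG of the 3′ splice site) and U2af2 (which binds the polypyrimidine tract), passed in neither system, with WAT values from -0.27 to 0.09 and culture values from -0.34 to 0.23.

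In the U4/U6.U5 tri-snRNP, 4 of 8 genes fell and 1 rose in WAT, beside 24.2% and 28.2% of all genes. With numbered copies summed 3 fell, as many as in the Sm core, and with library size only 2 fell and 3 rose. On the library-size scale 8.76% of all genes fell and 54.2% rose. In culture 1 of 8 rose and 0 fell (1 lower at an unadjusted p under 0.05), with 1 each way under library size only. The summed level of the 8 genes was 434 ± 18.5 CPM in cKO WAT and 721 ± 45.7 CPM in WT WAT, and 839.8 ± 41.5 CPM in KO cells and 847 ± 21.3 CPM in WT cells. Most of the WAT gap lay in Prpf8 and Snrnp200, and its size depends on the scaling. The median log2 fold change of the 8 genes in WAT was -0.40, but 0.28 with library size only. Snrnp200, encoding the BRR2 helicase that unwinds U4 from U6, had 63.5, 70.1 and 67.4 CPM in cKO WAT, against 134, 157 and 139 CPM in WT WAT. Prpf8, the scaffold around the catalytic centre, had 141, 166 and 150.2 CPM in cKO WAT, against 296, 314 and 319 CPM in WT WAT. Both fell to about the same extent, without overlap of the groups, Snrnp200 by 1.10 (SE 0.12, adjusted p = 0.000767) and Prpf8 by 1.02 (SE 0.12, adjusted p = 0.000955), and both calls held in all 15 alternatives run. In culture neither passed, Snrnp200 at 152, 150.1 and 162 CPM in KO and 168, 164 and 159 CPM in WT cells (log2 fold change of -0.08 with SE 0.10 and adjusted p = 0.639), and Prpf8 at 226, 254 and 304 CPM in KO and 322, 331 and 309 CPM in WT cells (log2 fold change of -0.29 with SE 0.12 and adjusted p = 0.0752).

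Prpf6, which bridges the U5 and U4/U6 snRNPs, moved in opposite directions. It had 49.6, 55.2 and 52.04 CPM in cKO WAT, against 71.7, 72.4 and 74.3 CPM in WT WAT, and 152, 154 and 154 CPM in KO cells, against 115, 112 and 122 CPM in WT cells. The groups were tight and did not overlap, lower in cKO WAT (log2 fold change of -0.48 with SE 0.11 and adjusted p = 0.00859) and higher in KO cells (log2 fold change of 0.40 with SE 0.11 and adjusted p = 0.0108). Scaled by library size only, the WAT change did not pass (0.20, adjusted p = 0.131), and the culture call was lost without KO replicate 2 or WT replicate 2 and in the fit over all 4 groups (adjusted p up to 0.076). Snrnp40, a U5 protein, fell in WAT by 0.66, a call lost in 9 of 15 alternatives. These were the removal of any 1 library but WT replicate 1, the replicate block, library size only, the correction for transcript length and GC content, and the sum of its numbered copies (-0.28, adjusted p = 0.109). Prpf3, a U4/U6 protein, rose in WAT by 0.68, a call lost in 4 of 15 alternatives (without cKO replicate 1, WT replicate 2 or WT replicate 3, and after correction for transcript length and GC content). Prpf4 and Prpf31, also of the U4/U6 particle, and the U5 GTPase Eftud2 passed in neither system, with WAT values of -0.14, -0.33 and -0.29 in that order.

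**Figure D2:**
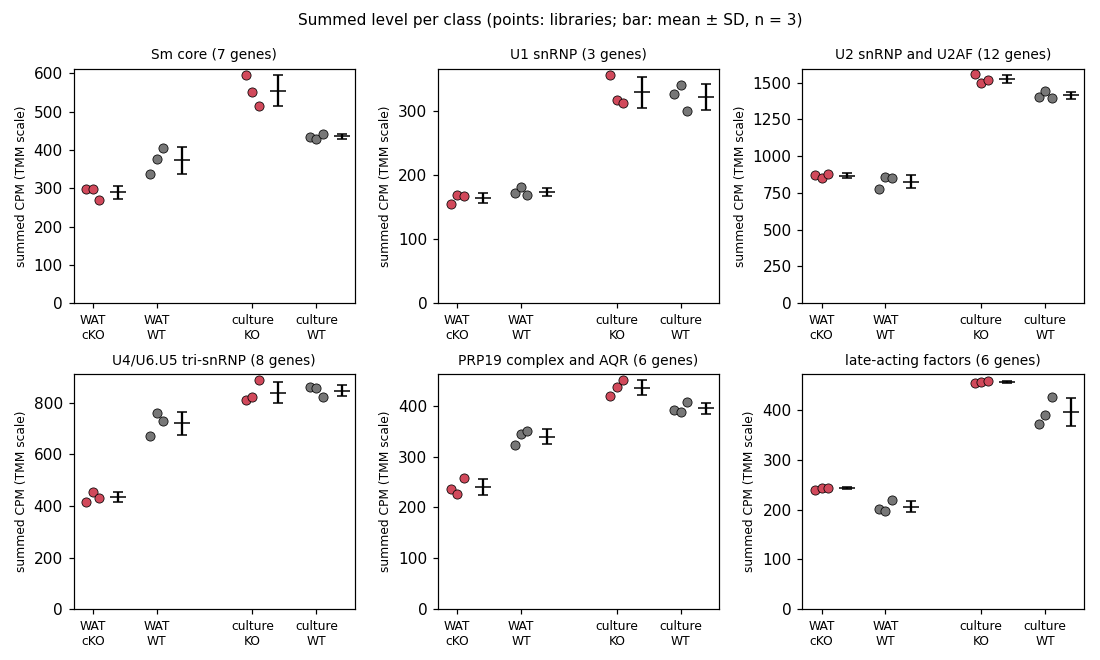
Summed CPM of the members of each class in every library, with cKO or KO left of WT and bars for the mean ± SD (n = 3). On the TMM scale the tri-snRNP class stands at 434 CPM in cKO WAT and 721 CPM in WT WAT without overlap, with most of the gap in Prpf8 and Snrnp200. The Sm class is lower in cKO WAT and higher in KO cells than in the matching WT libraries on this scale. The gaps in WAT depend on the scaling.

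Members of the PRP19 complex split within WAT. Of 6 genes in this class, 2 rose and 2 fell in WAT (4 and 1 with library size only), and 1 rose and 0 fell in culture (0 lower at an unadjusted p under 0.05). Among all genes 28.2% rose and 24.2% fell in WAT (54.2% and 8.76% with library size only), and 8.94% rose in culture. Prpf19, the ubiquitin ligase that gives the complex its name, had 79.9, 77.1 and 88.9 CPM in cKO WAT, against 157, 184 and 189.8 CPM in WT WAT. Crnkl1, a scaffold protein of the same complex, had 10.6, 13.02 and 12.3 CPM in cKO WAT, against 5.27, 3.55 and 3.84 CPM in WT WAT. These were the largest fall and the largest rise among the 42, Prpf19 at -1.11 (SE 0.13, adjusted p = 0.000894) and Crnkl1 at 1.5 (SE 0.23, adjusted p = 0.00196), and both held in all 15 alternatives. In culture Crnkl1 had 53.1, 52.9 and 55.4 CPM in KO and 32.3, 33.02 and 44.2 CPM in WT cells and rose again without overlap (log2 fold change of 0.56 with SE 0.13 and adjusted p = 0.00382), a call lost only in the fit over all 4 groups. Prpf19 overlapped between genotypes in culture, at 124, 144 and 130.1 CPM in KO and 139, 129.7 and 120.4 CPM in WT cells (log2 fold change of 0.04 with SE 0.11 and adjusted p = 0.855). Cdc5l, a partner of Prpf19, rose in WAT by 0.84, a call that held in all 15 alternatives, and was at 0.30 (adjusted p = 0.0652) in culture, while the intron-binding helicase Aqr fell in WAT by 0.54, a call lost with library size only (0.14, adjusted p = 0.311). Plrg1 and Bcas2 of the same complex passed in neither system.

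Among the late-acting factors, 2 of 6 rose and 0 fell in WAT (1 lower at an unadjusted p under 0.05), 5 and 0 with library size only, and 0 of 6 passed in culture (2 higher at an unadjusted p under 0.05). The WAT shares over all genes were 28.2% higher and 24.2% lower, or 54.2% and 8.76% with library size only. Slu7, which helps to position the 3′ splice site for the second step, had 29.3, 28.7 and 29.4 CPM in cKO WAT, against 17.6, 14.7 and 17.4 CPM in WT WAT. The groups did not overlap (log2 fold change of 0.81 with SE 0.13 and adjusted p = 0.00224), and the call was lost only after correction for transcript length and GC content (0.28, adjusted p = 0.0734). Slu7 had 51.5, 49.2 and 49.98 CPM in KO and 35.98, 39.2 and 47.1 CPM in WT cells, also without overlap, but did not pass there (log2 fold change of 0.30 with SE 0.12 and adjusted p = 0.0825). Dhx15, the helicase that takes the spent complex apart, had 66.3, 74.3 and 62.98 CPM in cKO WAT, against 49.7, 38.8 and 52.3 CPM in WT WAT. It rose without overlap (log2 fold change of 0.53 with SE 0.15 and adjusted p = 0.0213), with the call lost in 5 of 15 alternatives, among them cKO replicate 1, cKO replicate 2 or WT replicate 2 left out. In culture Dhx15 had 218, 213 and 217 CPM in KO and 148, 173 and 202 CPM in WT cells (log2 fold change of 0.31 with SE 0.12 and adjusted p = 0.062). The remaining 4 did not pass in either system, Dhx38 (the PRP16 helicase) at 0.23, Cdc40 at 0.41, the mRNA-release helicase Dhx8 at -0.02 and the DEAD-box protein Ddx41 at -0.33 in WAT.

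Both comparisons called 6 of the 42 genes (14.3%, against 11.6% of 12343 genes tested in both). Of these, Sf3b1, Snrpb2 and Crnkl1 rose in both, which 2.18% of all genes tested did, and Snrpd2, Snrpd3 and Prpf6 fell in WAT and rose in culture, where 6.85% of all genes passed in opposite directions. Across the 42 genes the log2 fold changes of the systems had a Pearson r of 0.45 and a Spearman rho of 0.37, and over all genes tested r was -0.10, as a description of genes that share the libraries of each system. The difference between the effects was tested directly, as the WAT effect minus the culture effect over all 12 libraries and 14463 genes. It passed for 20 of the 42, with 6 positive (27.7% of all genes) and 14 negative (21.1%), or 24 and 2 with library size only, where 50.7% of all genes were positive and 8.28% negative. The 6 became 3 without cKO replicate 1, WAT WT replicate 2 or KO replicate 2, where 26.0%, 24.9% and 23.2% of all genes were positive. The 14 became 9 without KO replicate 2, where 18.3% of all genes were negative. The smallest p-values were those of Snrnp200 (-0.98, adjusted p = 0.000127) and Prpf19 (-1.11, adjusted p = 0.00014), which held in all 20 alternatives run on them. The interaction fit shared 1 estimate of the spread between tissue and culture, with a biological coefficient of variation of 0.227, against 0.319 for WAT alone and 0.114 for culture alone. None of the alternatives gave each system its own spread, so these p-values do not allow for the larger spread in WAT.

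**Figure D3:**
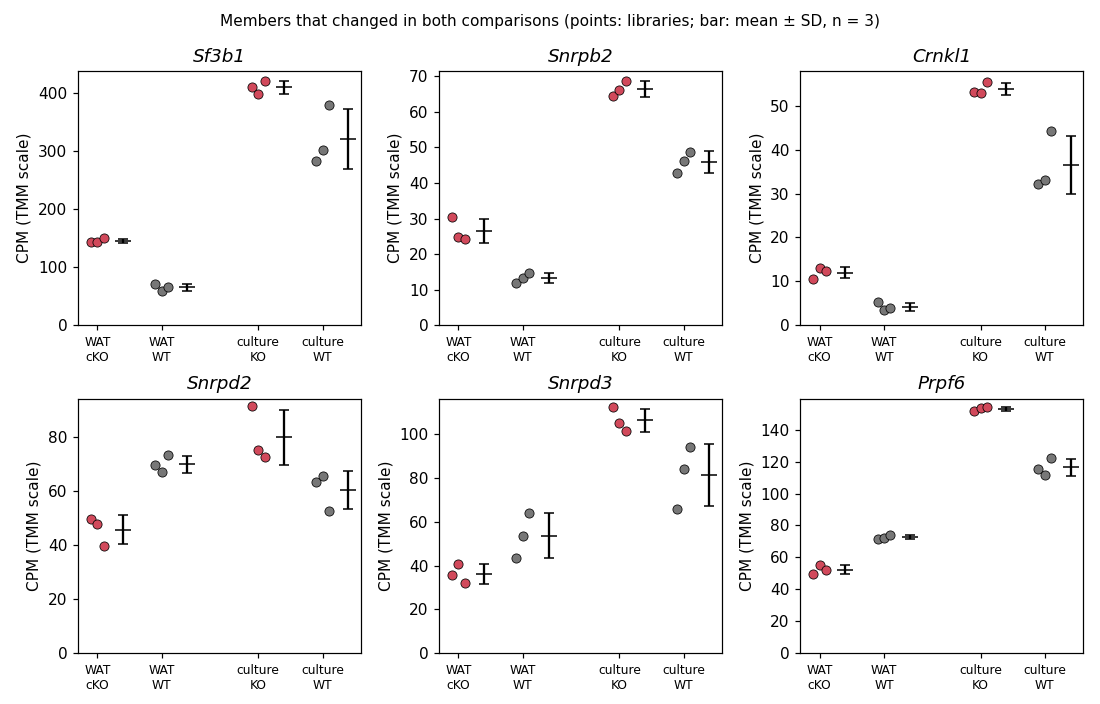
CPM in every library of the 6 genes that passed in both comparisons, with cKO or KO left of WT and bars for the mean ± SD (n = 3). In the upper row (Sf3b1, Snrpb2, Crnkl1) the cKO and KO libraries lie above their WT libraries in both systems, and in the lower row (Snrpd2, Snrpd3, Prpf6) they lie below in WAT and above in culture.

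**Figure D4:**
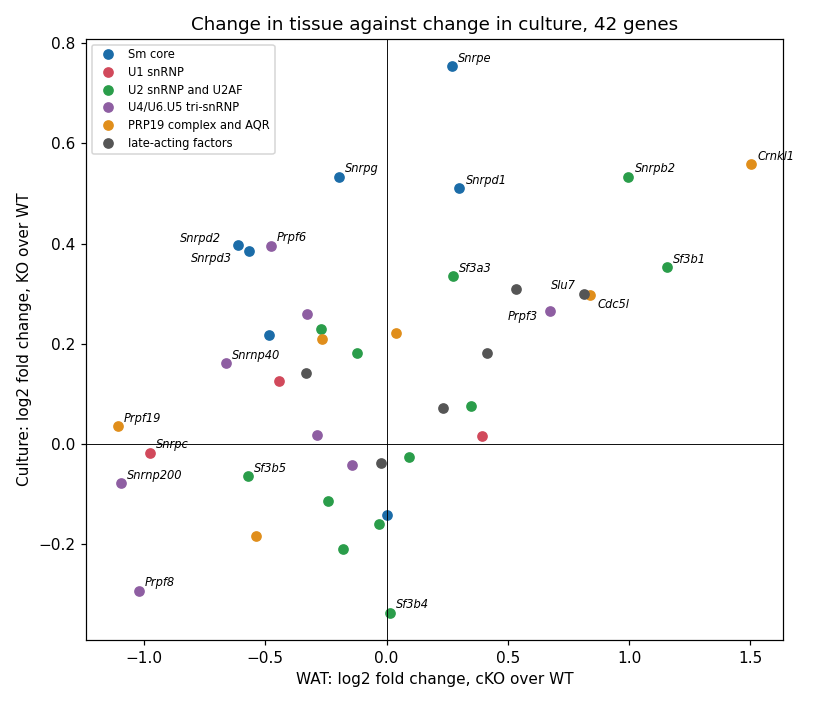
Log2 fold change in WAT, cKO over WT (horizontal), against that in culture, KO over WT (vertical), for the 42 genes, coloured by class. Crnkl1, Snrpb2 and Sf3b1 lie at the upper right, Snrpd2, Snrpd3 and Prpf6 at the upper left, and Snrnp200 and Prpf19 lie far to the left with culture values of -0.08 and 0.04.

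Promoter sequences are shown for the 6 genes that passed in both comparisons, since members that move together, or apart, can be compared letter by letter at their start sites. They are the 300-base windows around the RefSeq start on GRCm38.p6, printed 5′ to 3′ on the gene's strand, and capitals mark the letters of an ETS-type motif (CCGGAAG) or the core of an NRF1-type motif (TGCGCA) on either strand. The first 3 belong to the genes that rose in both systems, at chr1:55027429-55027728 (- strand), chr2:143062819-143063118 (+ strand) and chr2:145934651-145934950 (- strand). The other 3 belong to the genes that moved in opposite directions, at chr7:19149588-19149887 (+ strand), chr10:75517792-75518091 (+ strand) and chr2:181601069-181601368 (+ strand). The RefSeq start lay 491 bases from the start of the principal GENCODE transcript for Snrpd3, 314 for Crnkl1 and 116 for Snrpd2. For the other genes printed it lay at most 30 bases away. The windows of Snrpd3 and Crnkl1 thus do not hold the GENCODE start.
Sf3b1: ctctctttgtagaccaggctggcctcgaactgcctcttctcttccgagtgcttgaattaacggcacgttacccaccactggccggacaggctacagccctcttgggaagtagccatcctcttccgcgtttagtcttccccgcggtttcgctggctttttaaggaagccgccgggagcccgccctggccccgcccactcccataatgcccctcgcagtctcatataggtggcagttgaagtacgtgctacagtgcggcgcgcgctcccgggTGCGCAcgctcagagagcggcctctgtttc
Snrpb2: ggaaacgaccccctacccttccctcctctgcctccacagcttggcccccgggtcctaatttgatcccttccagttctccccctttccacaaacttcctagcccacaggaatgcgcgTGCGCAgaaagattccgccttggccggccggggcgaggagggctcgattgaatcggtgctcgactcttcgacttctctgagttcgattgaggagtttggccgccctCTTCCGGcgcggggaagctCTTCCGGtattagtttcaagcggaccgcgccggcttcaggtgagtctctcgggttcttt
Crnkl1: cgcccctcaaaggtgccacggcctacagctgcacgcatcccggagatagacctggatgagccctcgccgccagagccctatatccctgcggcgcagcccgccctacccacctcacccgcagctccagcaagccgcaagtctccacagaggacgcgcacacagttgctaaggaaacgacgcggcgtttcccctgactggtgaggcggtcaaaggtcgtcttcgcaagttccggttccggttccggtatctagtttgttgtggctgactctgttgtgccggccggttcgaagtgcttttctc
Snrpd2: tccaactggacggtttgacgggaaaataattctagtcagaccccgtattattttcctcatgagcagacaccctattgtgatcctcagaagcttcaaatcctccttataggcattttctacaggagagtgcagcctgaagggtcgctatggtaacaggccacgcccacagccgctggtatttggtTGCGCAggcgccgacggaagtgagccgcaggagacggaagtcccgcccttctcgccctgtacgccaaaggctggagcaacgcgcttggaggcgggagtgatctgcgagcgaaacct
Snrpd3: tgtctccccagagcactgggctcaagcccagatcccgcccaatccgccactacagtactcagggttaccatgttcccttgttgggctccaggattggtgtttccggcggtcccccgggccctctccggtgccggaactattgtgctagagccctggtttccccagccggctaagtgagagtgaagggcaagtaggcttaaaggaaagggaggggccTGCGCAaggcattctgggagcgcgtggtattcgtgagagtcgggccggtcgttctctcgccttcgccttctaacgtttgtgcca
Prpf6: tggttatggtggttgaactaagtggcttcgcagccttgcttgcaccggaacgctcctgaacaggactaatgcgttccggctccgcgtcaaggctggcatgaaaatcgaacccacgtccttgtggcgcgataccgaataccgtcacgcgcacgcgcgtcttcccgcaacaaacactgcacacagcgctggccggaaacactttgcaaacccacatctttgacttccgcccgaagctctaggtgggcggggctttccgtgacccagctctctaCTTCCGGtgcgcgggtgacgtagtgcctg

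Snrpb2 held both motifs, Prpf6 held the ETS-type letters only, Sf3b1, Snrpd2 and Snrpd3 held the NRF1-type core only, and Crnkl1 held neither. The genes that rose in both systems and those that moved in opposite directions thus shared both kinds of match. RefSeq windows were found for 33 of the 42 genes. The ETS-type letters were in 42.4% of these 33 windows, against 17.0% of the 11489 windows of all genes tested, and the NRF1-type letters in 33.3%, against 13.3%. A YY1-type motif (ATGGCGG) was in 12.1% against 7.82%, an SP1-type motif (GGGCGG) in 45.5% against 62.3%, CCAAT in 42.4% against 38.1%, TATAAA in 9.09% against 7.76% and the E-box CACGTG in 9.09% against 9.82%. Both strands were searched for each, and neither of the capitalised motifs overlapped the other in the windows printed. The median GC content of the windows was 56.7%, against 60.7% over all genes tested. The motif letters were settled after a first search of them had been seen, so these shares are a description and not an independent test. A match is a description of letters and not of a bound site.

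Levels per kilobase of transcript set the members in order within each group. Snrpb had the highest level in all 4 groups, at 104 ± 1.38 CPM per kb in cKO WAT and 146 ± 12.2 in WT WAT, and at 133 ± 14.9 in KO cells and 114 ± 12.1 in WT cells. The lowest in WAT was Crnkl1, at 3.49 ± 0.359 CPM per kb in cKO and 1.23 ± 0.269 in WT, and the lowest in culture was Prpf4, at 3.27 ± 0.299 in KO and 3.38 ± 0.302 in WT cells. Prpf19 ranked 7 of 42 in cKO WAT, at 38.4 ± 2.89 CPM per kb, and 2 of 42 in WT WAT, at 82.8 ± 8.19, while U2af2 and Snrpe ranked next below Snrpb in cKO WAT at 70.1 ± 2.06 and 57.5 ± 9.38, beyond one another's SD. The order of the 42 levels was much the same between genotypes, with a Spearman rho of 0.86 in WAT and 0.97 in culture, and 0.80 between the WT groups of the 2 systems.

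Transcripts of low GC content had the higher fold changes among the 42 genes in both systems. The log2 fold change and the GC content of the transcript had a Pearson r of -0.48 in WAT and -0.48 in culture, and -0.25 and -0.32 over all genes tested, across genes that are not independent replicates. The mean level on the log2 scale had an r with the fold change of -0.49 in WAT and -0.19 in culture, against -0.39 and 0.10 over all genes tested. For transcript length on the log2 scale r was 0.03 in WAT and -0.37 in culture, against 0.17 and -0.24 over all genes tested. The 8 genes that rose in WAT had a median GC content of 45.3%, the 11 that fell 51.5% and the 23 that did not pass 50.4%. In culture it was 45.6% for the 10 that rose and 51.2% for the 32 that did not pass. Snrpb2 had the lowest of the rising genes, at 39.3%, and Crnkl1 had 44.8%. After each library was corrected for its trend with transcript length and GC content, 4 of the 42 (9.52%) rose and 12 (28.6%) fell in WAT, where 18.2% of all genes rose and 28.6% fell. In culture 13 (31.0%) rose and 2 (4.76%) fell after that correction, where 11.3% of all genes rose and 9.31% fell. The part of base composition, level and length in these changes was not tested beyond that fit.

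**Figure D5:**
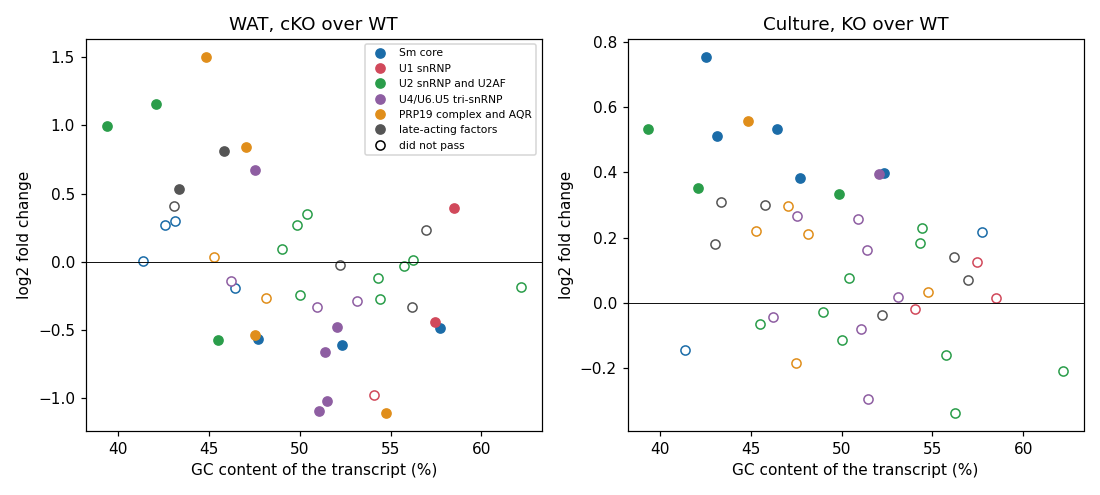
Log2 fold change, cKO over WT in WAT (left) and KO over WT in culture (right), against the GC content of the transcript in percent, for the 42 genes coloured by class, with open points for genes that did not pass. The points slope downward in both panels (r of -0.48 in each), with Snrpb2 at 39.3% GC among the highest and Prpf19 the lowest in WAT.

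Other genes of the splicing machinery were counted from 3 further lists. Other spliceosome proteins rose for 23 and fell for 12 of 83 tested in WAT (63 and 0 with library size only, 7 and 21 after correction for transcript length and GC content) and rose for 22 and fell for 1 of 83 in culture (18 and 3 with library size only). The WAT shares, 27.7% higher and 14.5% lower, stand beside 28.2% and 24.2% of all genes, so the rises in WAT were no more frequent than over all genes. With library size only 54.2% of all genes rose and 8.76% fell in WAT, and after the length and GC correction 18.2% and 28.6%. In culture 26.5% were higher, beside 8.94% of all genes. In WAT the smallest p-values were those of Ddx46, the helicase that acts with U2 at the branch site, at 1.06 (SE 0.12, adjusted p = 0.000753), of Thoc2, a THO-complex subunit for mRNA export, at 1.30 (SE 0.16, adjusted p = 0.001), and of the second-step factor Prpf18, at 0.76 (SE 0.12, adjusted p = 0.00199). The rise of Thoc2 was lost after correction for transcript length and GC content (-0.12, adjusted p = 0.471). In culture they were those of Ik, at 0.60 (SE 0.11, adjusted p = 0.000944), Lsm7, of the ring on U6 snRNA, at 0.71 (SE 0.13, adjusted p = 0.000946), and Prpf38a, at 0.59 (SE 0.12, adjusted p = 0.00123). Ik and Prpf38a encode proteins of the precatalytic complex. Their levels did not overlap, with Ik at 215, 219 and 214 CPM in KO and 125, 138 and 164 CPM in WT cells.

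Minor-spliceosome genes, for the rare class of U12-type introns, rose for 4 and fell for 5 of 15 tested in WAT (8 and 1 with library size only), and rose for 1 and fell for 0 of 15 in culture (3 higher and 0 lower at an unadjusted p under 0.05). That is 26.7% higher and 33.3% lower in WAT and 6.67% higher in culture, beside the shares of all genes just given. Dhx32 had 51.4, 62.6 and 46.3 CPM in cKO WAT, against 147, 179 and 198 CPM in WT WAT, and fell by 1.71 (SE 0.17, adjusted p = 0.000648). Zrsr2, which recognises the 3′ splice site of U12-type introns, rose in WAT by 1.33 (SE 0.18, adjusted p = 0.00138), and Txnl4b fell by 1.16 (SE 0.21, adjusted p = 0.00383). In culture Zrsr1, a close copy of Zrsr2 with which it could exchange reads, rose by 0.70 (SE 0.16, adjusted p = 0.00314), and Zcrb1 and Snrnp48, of the U11/U12 particle, were at 0.31 and 0.44 and did not pass.

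Genes for making snRNAs and assembling snRNPs rose for 5 and fell for 9 of 29 in WAT (17 and 1 with library size only), and rose for 4 and fell for 0 of 29 in culture (6 higher and 0 lower at an unadjusted p under 0.05). That is 17.2% higher and 31.0% lower in WAT and 13.8% higher in culture. Prmt5, which methylates Sm proteins, had 38.8, 49.7 and 44.04 CPM in cKO WAT, against 86.7, 102 and 99.5 CPM in WT WAT, and fell by 1.12 (SE 0.14, adjusted p = 0.00104). Snapc4, of the complex on snRNA promoters, rose in WAT by 1.12 (SE 0.15, adjusted p = 0.0012), and Larp7, which binds 7SK and U6 RNA, by 1.56 (SE 0.21, adjusted p = 0.00145). In culture the snRNP import adaptor Snupn rose by 0.74 (SE 0.15, adjusted p = 0.00168), and Strap and Ddx20, which work with the SMN complex that loads the Sm ring, rose by 0.46 (SE 0.11, adjusted p = 0.00491) and 0.55 (SE 0.14, adjusted p = 0.00665).

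Reads of some members could be shared with other genes. GENCODE lists 26 near-identical copies of 11 members (at least 95% identity over at least 200 bases and 70% of the copy), 10 of them copies of Cdc5l. The culture table counts 9 of these copies, each with at most 0.713% of the counts of its gene, and the WAT table counts 0 of them. Exons of Snrpd3, Snrpf, Snrpa, Sf3a2, Prpf31, Eftud2 and Crnkl1 among others overlap a gene on the opposite strand, and the strand setting of the counting is not given in the sources used here, so reads of such pairs cannot be told apart.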

How the data were processed

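Total RNA of 12 mouse samples was extracted with TRIzol and made into libraries with an MGIEasy mRNA kit, per the labels' protocols. The deposited files hold raw gene-level read counts with no normalization, in 1 table for WAT and 1 for the cultures. HISAT2 2.1.0, cutadapt 1.11, FastQC 0.11.2 and the genome build GRCm38 are named in the submitters' processing notes. Counter, annotation and strandedness were not given in the sources used here. All 12 value columns were used, with groups taken from the sample titles. The WAT table also holds 3137 loci with no gene name, which took 0.416% to 0.832% of a library's counts and stayed in the fit as features.

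Each comparison was fitted over all genes with edgeR 4.0.16 in R 4.3.3 (quasi-likelihood test, filterByExpr with a minimum count of 10, TMM factors, Benjamini-Hochberg adjustment, threshold 0.05) on its own 6 libraries, and the members' values were read off that fit. The SE is the log2 fold change divided by the square root of F. The difference between both effects was an interaction over the symbols in both tables. The script was tested on simulated data. The biological coefficient of variation was 0.319 for WAT, 0.114 for culture and 0.227 for the interaction, which pooled both systems. Precision is limited by 3 libraries per group.

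Alternatives were other scalings (RLE, library size only), no filter, a replicate block, 1 fit over all 4 groups, DESeq2 1.42.0, voom in limma 3.58.1, numbered copies summed, thinned culture libraries, each library left out, and removal of the trend with transcript length and GC content. Lengths and GC content came from the principal GENCODE transcript on GRCm38, with values for all 42 members and for 85.8% of the WAT genes and 98.0% of the culture genes tested. CPM per kb divides CPM by that length. Promoters came from RefSeq on GRCm38.p6, and the motif letters, shortened to cores for NRF1 and YY1, were settled after a first search of them had been seen.

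The members and all gene lists were chosen with earlier results of these data known. Values are given for Fam50a, for the member with the smallest p and the one with the largest change per class and comparison, for members called in both comparisons, for the 8 smallest interaction p-values, and for the 3 smallest p-values of each further splicing list. Other members were named after their values were seen.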

Additional observations from a re-analysis of the deposited data

Results flagged for a closer look

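For 20 of the 42 genes the genotype effect differed between tissue and culture when that difference was itself tested (interaction in edgeR, adjusted p under 0.05 over 14463 genes, of which 48.8% passed). Values are the WAT effect minus the culture effect on the log2 scale. The effect was more negative in WAT for Prpf19 (-1.11), Snrnp200 (-0.98), Prpf8 (-0.69), Prpf6 (-0.84), Snrnp40 (-0.79) and Prpf31 (-0.55), which are PRP19-complex and tri-snRNP genes. Among the Sm genes it was more negative for Snrpd2 (-0.98), Snrpd3 (-0.92), Snrpg (-0.69) and Snrpb (-0.67). Further genes on this side were Snrpa (-0.54), Sf3b5 (-0.47), U2af1 (-0.47) and Plrg1 (-0.44). It was more positive in WAT for Crnkl1 (0.98), Sf3b1 (0.84), Cdc5l (0.58), Slu7 (0.55), Snrpb2 (0.50) and Snrnp70 (0.41). Snrpb2, Sf3b1 and Crnkl1 rose in both systems, so for these the difference is one of size. Of 20 alternatives run on each, the call was lost in 10 for Snrpg, Plrg1 and Snrnp70, in 9 for Snrpb2, in 7 for U2af1, in 6 for Prpf31 and Cdc5l, in 5 for Sf3b5, in 3 for Snrpa and in 2 for Snrnp40 (library size only and numbered copies summed). It was lost with library size only for Snrpd2, Snrpd3, Snrpb, Prpf6 and Prpf8, and after correction for transcript length and GC content for Crnkl1, Sf3b1 and Slu7. Prpf19 and Snrnp200 kept it in all 20, though none of these gave tissue and culture separate spreads. With numbered copies summed, Snrpc, not among the 20 genes, also passed as more negative in WAT.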

How the results depend on the processing

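The WAT counts of 8 higher and 11 lower became 28 and 3 with library size only, where the members' median turned to 0.55, and 4 higher after the length and GC correction. The median was -0.19 with RLE factors and with DESeq2. In culture, 10 higher and 0 lower became 6 and 2 with library size only (median 0.11), and 1 lower without the filter or 2 lower after the length and GC correction. In 1 fit over all 4 groups 0 were higher in culture, where 0.401% of all genes were. The interaction counts of 6 and 14 became 24 and 2 with library size only, and 3 and 17 after the length and GC correction. After that correction 17.9% of all genes were positive and 29.1% negative.

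Leaving out each library in turn gave 5 to 8 higher and 8 to 12 lower in WAT (median -0.17 to -0.10), 4 to 14 higher and 0 to 1 lower in culture (median 0.12 to 0.19), and 3 to 7 higher and 9 to 13 lower interactions. Over all genes the same removals gave 20.4% to 26.3% higher and 18.3% to 25.3% lower in WAT. In culture they gave 3.13% to 13.5% higher and 3.91% to 13.2% lower, and for the interaction 23.1% to 29.8% and 18.3% to 22.6%. Same-numbered samples had correlated deviations of -0.33, 0.03 and -0.23 in WAT and 0.18, 0.03 and 0.24 in culture. Not every pair was above 0.1, so the numbers were not taken as pairs, though in culture 4 of 6 samples correlated best with their own number, a hint from the data only. The block moved the calls over all genes to 30.4% in culture (19.5% without it) and 44.5% in WAT (52.4% without it). A replicate block gave 6 higher and 9 lower in WAT, 14 and 2 in culture and 4 and 13 for the interaction. Over all genes it gave 23.1% higher and 21.4% lower in WAT, 14.4% and 16.0% in culture and 25.7% and 20.4% for the interaction.

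Signs turned mainly with library size only, which raises the median of all genes in WAT by 0.68. Called falls in WAT then stood at 0.065 (Snrpd2), 0.24 (Snrpa), 0.20 (Prpf6), 0.11 (Snrpd3), 0.20 (Snrpb), 0.11 (Sf3b5), 0.024 (Snrnp40), 0.14 (Aqr) and 0.089 (Fam50a), and none of these passed. Genes that had not passed in WAT then passed as higher at 0.48 (Snrpg), 0.44 (Sf3a1), 0.50 (Sf3a2), 0.56 (Sf3b2), 0.41 (U2af1), 0.65 (U2af2), 0.54 (Prpf4), 0.40 (Eftud2), 0.42 (Plrg1) and 0.66 (Dhx8). Interactions turned to 0.12 (Snrpa), 0.18 (Sf3b5), 0.19 (U2af1), 0.10 (Prpf31) and 0.21 (Plrg1). After the length and GC correction, WAT values turned to -0.15 (Dhx15), -0.12 (Thoc2) and -0.50 (Snrpf, adjusted p = 0.037), and interactions to -0.16 (Sf3b1) and -0.11 (Snrpb2). The cause of these changes was not tested beyond the scaling itself. With 3 libraries per group, a gene that did not pass is not shown to be unchanged.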
